A study of Saccharomyces cerevisiae with 4 samples.

Results

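The genes that encode the cytoplasmic mRNA decay machinery of budding yeast, Saccharomyces cerevisiae, were examined as DNA targets of 3 of their own products. The list held 44 named genes of decapping, deadenylation, 5′ to 3′ decay, the Ski complex, nonsense-mediated decay and mRNA-binding regulation. PAN3 lies on chromosome XI, which was left out because its positions were offset from the gene table, and 43 of 5684 coding genes remained. By role, 8 act in decapping and 5′ to 3′ decay, 10 activate decapping, 10 act in deadenylation, 4 in the Ski complex, 3 in nonsense-mediated decay, and 8 encode mRNA-binding regulators. For each gene the tags were counted in the 300 bp upstream of its start codon and between its start and stop codons. The strains carried XRN1-TAP, DCP2-TAP, LSM1-TAP or no TAP tag in the background strain yMC458, all grown in YPD, a rich glucose medium, and each gave 1 library, called Xrn1-TAP, Dcp2-TAP, Lsm1-TAP or No-TAP. A TAP tag holds IgG-binding protein A domains, so IgG beads pull down the tagged protein with the DNA crosslinked to it, and the No-TAP strain gives what the beads hold without a tag. ChIP-exo then trims the bound DNA with exonucleases, so that tag ends lie close to the crosslinked protein. The study asked, by its title and design, whether such decay factors sit on the chromatin of genes.

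Most yeast mRNAs are first deadenylated by the Ccr4-Not and Pan2-Pan3 complexes. The ring of Lsm proteins with Pat1 then binds the shortened 3′ end, Dcp2 with its partner Dcp1 removes the cap, and the exonuclease Xrn1 digests the body from the 5′ end. A second route runs from the 3′ end through the cytoplasmic exosome and the Ski complex, and the Upf proteins send mRNAs with premature stop codons into decay.

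The libraries held 158105 tags with Xrn1-TAP, 357674 with Dcp2-TAP, 211236 with Lsm1-TAP and 33412 with No-TAP. Since PCR copies add tags at 1 place, a distinct position on 1 strand was counted once, which left 18481 positions with Xrn1-TAP, 44955 with Dcp2-TAP, 25342 with Lsm1-TAP and 4743 with No-TAP. The mean coding gene had 0.865 positions in its 300 bp window with Xrn1-TAP, 2.25 with Dcp2-TAP, 1.07 with Lsm1-TAP and 0.228 with No-TAP. An even spread over the nuclear genome would put 0.424, 1.04, 0.573 and 0.109 there, with the libraries in that order, which is kept wherever values follow each other without names. These low numbers set the precision of every single-gene value here. With 1 library per strain there is no replicate check and no test between strains. Each interval is an exact 95% interval for counting error only, and leaves out the spread between genes. In a culture, binding in few cells and weak binding in all cells cannot be told apart.

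Upstream of the decay factor genes Dcp2-TAP and Lsm1-TAP held fewer positions than upstream of a mean coding gene. Summed over the 3 TAP libraries, no decay factor gene had 10 or more upstream positions. The 43 windows held 33 positions with Xrn1-TAP, 64 with Dcp2-TAP, 26 with Lsm1-TAP and 10 with No-TAP. Relative to 43 mean coding windows this was 0.888-fold (0.611 to 1.25) with Xrn1-TAP, 0.660-fold (0.509 to 0.843) with Dcp2-TAP, 0.564-fold (0.368 to 0.826) with Lsm1-TAP and 1.02-fold (0.488 to 1.87) with No-TAP. The intervals lay below 1 in Dcp2-TAP and Lsm1-TAP and held 1 in Xrn1-TAP and No-TAP. In windows free of other genes and their windows the Dcp2-TAP fold was 0.743 (0.518 to 1.03), an interval that held 1. In tags the folds were 0.956 with Xrn1-TAP, 0.764 with Dcp2-TAP, 0.431 with Lsm1-TAP and 1.09 with No-TAP. Relative to an even spread the windows were still enriched in 3 libraries, at 1.81-fold (1.25 to 2.54) in Xrn1-TAP, 1.43-fold (1.10 to 1.83) in Dcp2-TAP and 2.14-fold (1.02 to 3.93) in No-TAP, while Lsm1-TAP stood at 1.05-fold (0.689 to 1.54). All coding genes together stood at 2.04-fold with Xrn1-TAP, 2.17-fold with Dcp2-TAP, 1.87-fold with Lsm1-TAP and 2.10-fold with No-TAP.

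The median decay factor gene had 1 upstream position in Dcp2-TAP and 0 in each other library, and the median coding gene had 1 in both Dcp2-TAP and Lsm1-TAP and 0 in the others. A window with at least 1 position, called marked from here on, was found upstream of 21 decay factor genes (48.8%) with Xrn1-TAP, 36 (83.7%) with Dcp2-TAP, 20 (46.5%) with Lsm1-TAP and 8 (18.6%) with No-TAP. The background shares over all coding genes were 47.4% with Xrn1-TAP, 75.7% with Dcp2-TAP, 54.9% with Lsm1-TAP and 18.2% with No-TAP. A position in each of the 3 TAP libraries was found for 10 decay factor genes (CCR4, CDC39, CTH1, DCS1, DCS2, LSM4, NOT5, PAT1, SBP1 and TIS11), against 26.6% of coding genes, and none in any library for 3 (CAF130, LSM7 and PBP1), against 9.41%. The decay factor genes were thus marked in single libraries about as often as other genes, and the difference lay in how many positions a marked window held. Summed over the 3 TAP libraries the median was 3 positions for the decay factor genes and 3 for all coding genes, with quartiles of 2 to 3.5 and 1 to 5. The highest decay factor gene, PAB1, had 8, a number that 680 coding genes (11.96%) reached, and the highest coding gene outside the ribosomal DNA had 96. Sums of 10 or more occurred in 0 decay factor genes and in 465 coding genes (8.18%), which held 35.9% of all upstream positions.

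**Figure D1:**
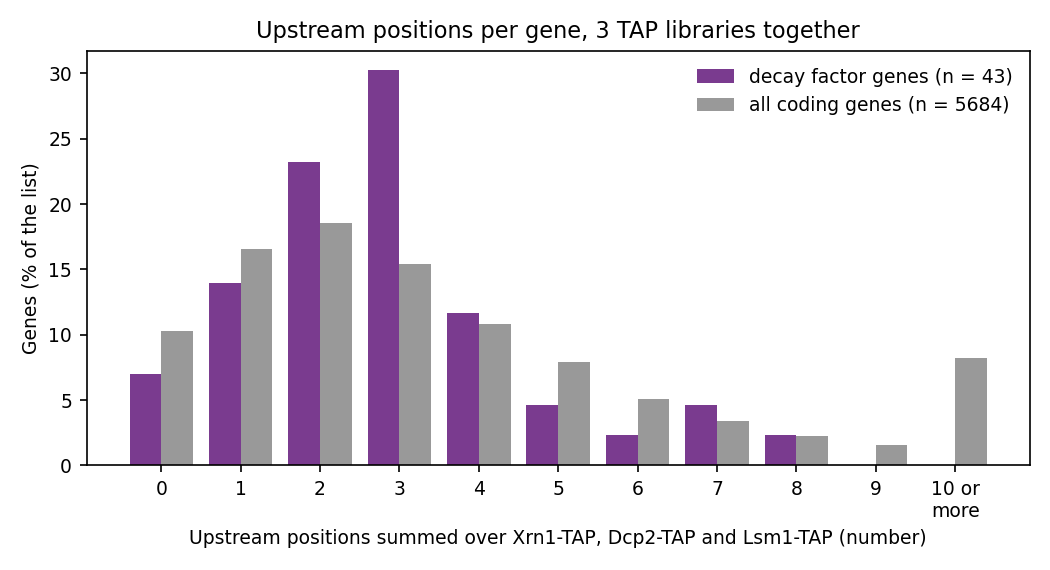
Share of genes (vertical axis, percent of the list) by the number of upstream positions summed over the 3 TAP libraries (horizontal axis), for 43 decay factor genes (purple) and 5684 coding genes (grey). The decay factor genes are bunched at 2 and 3 positions and end at 8, while 8.18% of coding genes have 10 or more.

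A window was called where its positions exceeded the library's own even spread by a 1-sided exact Poisson test, with Benjamini-Hochberg adjustment over all 5684 genes and an adjusted p of at most 0.05. This tests 1 library against itself and not against No-TAP. By this rule 1 decay factor gene was called in Xrn1-TAP (CTH1), 1 in Dcp2-TAP (PAB1), none in Lsm1-TAP and 1 in No-TAP (CDC39), and the background was 4.52%, 10.9%, 6.00% and 0.792% of coding genes in those libraries. The fewest positions with which any gene was called were 4 with Xrn1-TAP, 5 with Dcp2-TAP, 4 with Lsm1-TAP and 3 with No-TAP. By tags, which count PCR copies, 9 decay factor genes were called with Xrn1-TAP (28.5% of coding genes), 15 with Dcp2-TAP (38.7%), 5 with Lsm1-TAP (28.5%) and 4 with No-TAP (11.2%). The PAB1 call was lost in a 150 bp window, which holds none of its 5 positions in Dcp2-TAP. The CDC39 call was lost in windows of 150 and 500 bp. As shares of the 43 genes, the calls by either unit lay below the background in the 3 TAP libraries. By positions this rests on at most 1 call a library, and the difference was not tested. In No-TAP the share by positions, from 1 gene, lay above the background.

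**Figure D2:**
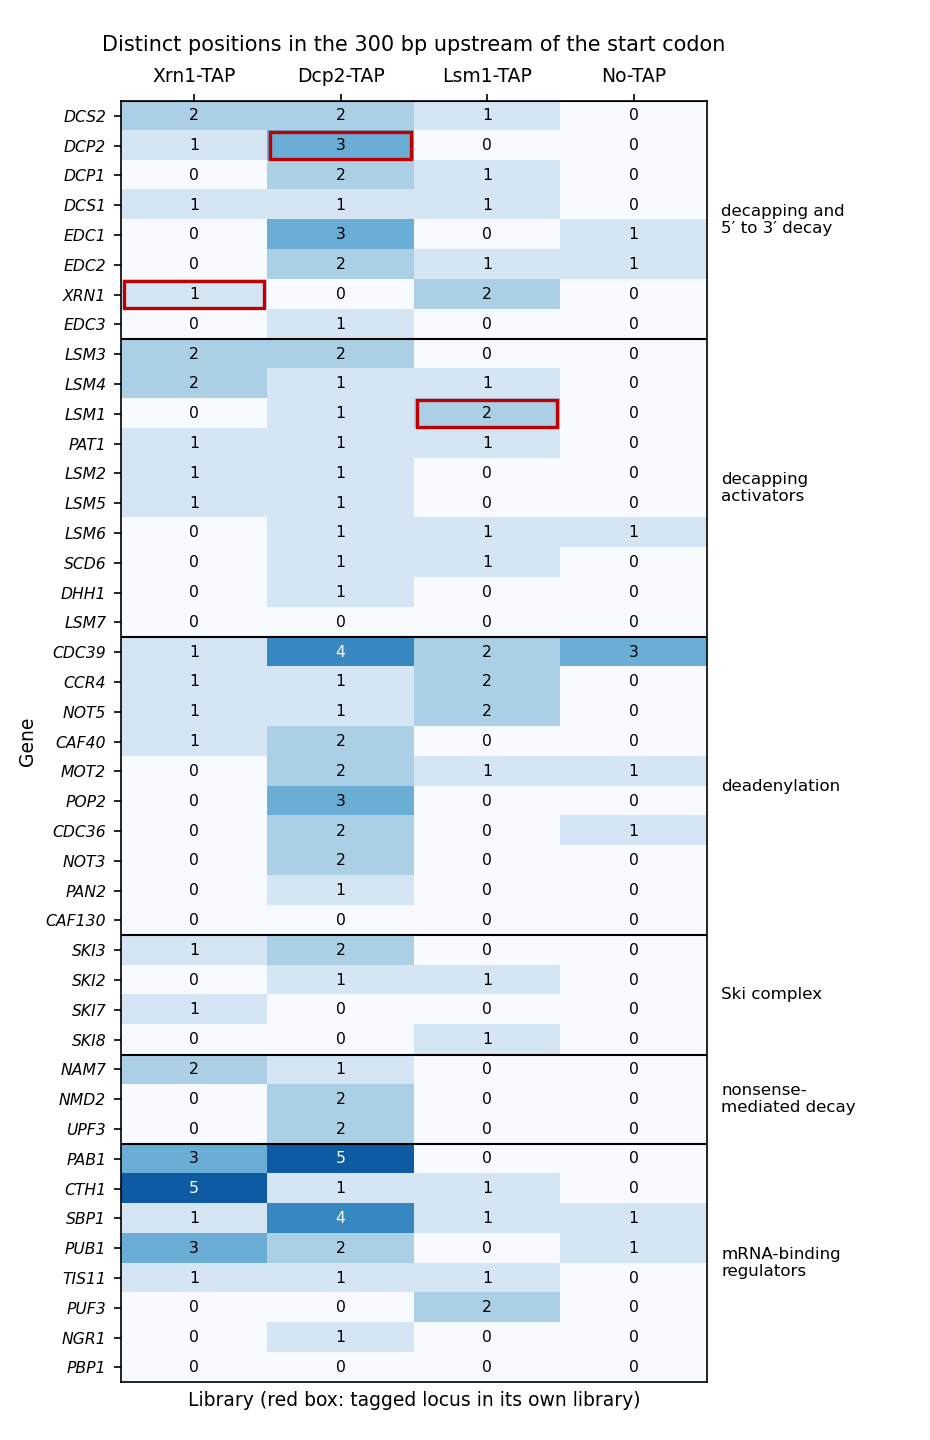
Distinct positions in the 300 bp upstream of each of the 43 decay factor genes (rows, by role) in the 4 libraries (columns), darker blue for more. The highest cells are CTH1 in Xrn1-TAP and PAB1 in Dcp2-TAP with 5 positions each, and red boxes mark XRN1, DCP2 and LSM1 in their own libraries.

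Of the genes of decapping and 5′ to 3′ decay, DCS2 had the most upstream positions over the TAP libraries, followed by DCP2. DCS2, a paralogue and regulator of the scavenger decapping enzyme Dcs1, had 2 positions (32 tags) in Xrn1-TAP, 2 (36 tags) in Dcp2-TAP, 1 (1 tag) in Lsm1-TAP and 0 in No-TAP. DCS1, whose product hydrolyses the cap left over from 3′ to 5′ decay, had 1 position (6 tags) in Xrn1-TAP, 1 (14 tags) in Dcp2-TAP, 1 (2 tags) in Lsm1-TAP and 0 in No-TAP. Both paralogues were therefore marked in all 3 TAP libraries and in neither case in No-TAP, at 1 or 2 positions a library. The catalytic subunit gene DCP2 had 3 positions (12 tags) in its own library, 1 (8 tags) in Xrn1-TAP and 0 in both Lsm1-TAP and No-TAP. DCP1, for the partner of Dcp2, had 2 positions (37 tags) in Dcp2-TAP, 1 (2 tags) in Lsm1-TAP and 0 in both Xrn1-TAP and No-TAP. EDC1 and EDC2 are paralogues that encode small activators of decapping, and both were marked in No-TAP as well. EDC1 had 3 positions (27 tags) in Dcp2-TAP, 0 in Xrn1-TAP and Lsm1-TAP, and 1 (1 tag) in No-TAP. EDC2 had 0 in Xrn1-TAP, 2 (21 tags) in Dcp2-TAP, 1 (6 tags) in Lsm1-TAP and 1 (6 tags) in No-TAP. The exonuclease gene XRN1 had 1 position (5 tags) in its own library, 0 in Dcp2-TAP, 2 (5 tags) in Lsm1-TAP and 0 in No-TAP. EDC3, for a scaffold of the decapping complex, had 1 position of 1 tag in Dcp2-TAP and 0 elsewhere.

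The 10 genes of decapping activators were the sparsest large group in Dcp2-TAP, with 10 upstream positions or 0.444-fold of a mean gene (0.213 to 0.816). LSM4, a subunit of the Lsm ring, had 2 positions (32 tags) in Xrn1-TAP, 1 (8 tags) in Dcp2-TAP, 1 (8 tags) in Lsm1-TAP and 0 in No-TAP. LSM3 had 2 (11 tags) in Xrn1-TAP, 2 (22 tags) in Dcp2-TAP and 0 in both Lsm1-TAP and No-TAP, and all 4 lay in a window shared with the divergent gene MRPL4. LSM1, the subunit that sets the cytoplasmic ring apart from the nuclear one, had 2 positions (20 tags) in its own library, 1 (8 tags) in Dcp2-TAP, 0 in Xrn1-TAP and 0 in No-TAP. Of the ring genes, LSM6 was the member marked in No-TAP. It had 0 positions in Xrn1-TAP, 1 (3 tags) in Dcp2-TAP, 1 (1 tag) in Lsm1-TAP and 1 (15 tags) in No-TAP, so the untagged library held most of its tags despite its lower depth. PAT1, for the protein that joins the ring to the decapping enzyme, had 1 position in each TAP library and 0 in No-TAP. SCD6, for a translation repressor that promotes decapping, had 1 position (3 tags) in Dcp2-TAP and 1 (30 tags) in Lsm1-TAP, and 0 in Xrn1-TAP and No-TAP. LSM2 and LSM5 had 1 position in both Xrn1-TAP and Dcp2-TAP, and DHH1, for a DEAD-box helicase that represses translation, had 1 in Dcp2-TAP. LSM7 had none in any library.

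Among the deadenylation genes CDC39 stood first, and it was also the decay factor gene with most positions in No-TAP. It encodes Not1, the scaffold of the Ccr4-Not complex, and had 1 position (16 tags) in Xrn1-TAP, 4 (57 tags) in Dcp2-TAP, 2 (8 tags) in Lsm1-TAP and 3 (34 tags) in No-TAP. It was called in No-TAP by the exact Poisson test (adjusted p = 0.0250) but in none of the TAP libraries, where 0.424 to 1.04 positions were the even spread. All 10 positions lay in the 296 bp gap that CDC39 shares with the divergent mismatch repair gene MSH3, so they cannot be given to 1 of the 2 genes. CCR4, for the main deadenylase, and NOT5 each had 1 position with Xrn1-TAP, 1 with Dcp2-TAP, 2 with Lsm1-TAP and 0 with No-TAP. POP2, for the second deadenylase of the complex, had 3 (16 tags) in Dcp2-TAP and 0 in the other libraries. MOT2, for the ubiquitin ligase Not4, had 0 in Xrn1-TAP, 2 (32 tags) in Dcp2-TAP, 1 (10 tags) in Lsm1-TAP and 1 (17 tags) in No-TAP. CDC36, for Not2, had 2 (18 tags) in Dcp2-TAP, 1 (3 tags) in No-TAP and 0 in Xrn1-TAP and Lsm1-TAP. CAF40 had 1 (8 tags) in Xrn1-TAP and 2 (20 tags) in Dcp2-TAP, NOT3 had 2 (17 tags) and PAN2, for the catalytic subunit of the other deadenylase, 1 (8 tags) in Dcp2-TAP, all with 0 in the libraries not named. CAF130 had none anywhere. As a group the 10 genes held 4 positions with Xrn1-TAP, 18 with Dcp2-TAP, 7 with Lsm1-TAP and 5 with No-TAP, which put No-TAP at 2.19-fold (0.711 to 5.11) of a mean gene and at 0.973-fold (0.118 to 3.52) without CDC39.

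The Ski complex unwinds mRNA into the exosome, and its 4 genes were sparsely marked, with 2 upstream positions with Xrn1-TAP, 3 with Dcp2-TAP, 2 with Lsm1-TAP and 0 with No-TAP. SKI3 and SKI8 encode its repeat-protein subunits, SKI2 its helicase and SKI7 its link to the exosome. SKI3 had 1 position (8 tags) in Xrn1-TAP and 2 (11 tags) in Dcp2-TAP, SKI2 had 1 in Dcp2-TAP (6 tags) and 1 in Lsm1-TAP (4 tags), SKI7 had 1 (12 tags) in Xrn1-TAP and SKI8 had 1 (19 tags) in Lsm1-TAP. The Dcp2-TAP count was 0.333-fold of a mean gene (0.0686 to 0.973). The 3 genes of nonsense-mediated decay held 2 positions in Xrn1-TAP, 5 in Dcp2-TAP and 0 in both Lsm1-TAP and No-TAP. NAM7, for the helicase Upf1, had 2 (20 tags) in Xrn1-TAP and 1 (1 tag) in Dcp2-TAP, while NMD2, for Upf2, had 2 (23 tags) and UPF3 2 (13 tags) in Dcp2-TAP and neither had any elsewhere.

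The mRNA-binding regulators held 4 of the 6 decay factor genes with a summed count of 5 or more. Such a count was found for 13.95% of the decay factor genes and 28.3% of coding genes. PAB1, for the poly(A)-binding protein, had 3 positions (21 tags) in Xrn1-TAP, 5 (55 tags) in Dcp2-TAP and 0 in both Lsm1-TAP and No-TAP. It was called in Dcp2-TAP by the exact Poisson test (adjusted p = 0.0392), where 10.9% of coding genes had at least as many positions. CTH1 and TIS11 are paralogues whose zinc-finger proteins bind AU-rich elements and destabilise mRNAs when iron is short. CTH1 had 5 positions (97 tags) in Xrn1-TAP, 1 (10 tags) in Dcp2-TAP, 1 (8 tags) in Lsm1-TAP and 0 in No-TAP. Its call in Xrn1-TAP had an adjusted p of 0.00337 by the exact Poisson test. At least as many positions were found upstream of 2.38% of coding genes there. TIS11 had 1 position in each TAP library (2, 12 and 18 tags) and 0 in No-TAP, so only CTH1 of the pair was called and this difference was not tested. SBP1, for a translation repressor, had 1 (2 tags) in Xrn1-TAP, 4 (38 tags) in Dcp2-TAP, 1 (1 tag) in Lsm1-TAP and 1 (3 tags) in No-TAP. PUB1, for a poly(U)-binding protein, had 3 (20 tags) in Xrn1-TAP, 2 (5 tags) in Dcp2-TAP, 0 in Lsm1-TAP and 1 (1 tag) in No-TAP. PUF3, whose product binds mRNAs of mitochondrial proteins, had 2 (16 tags) in Lsm1-TAP alone, NGR1 had 1 (7 tags) in Dcp2-TAP, and PBP1, for a Pab1-binding protein, had none.

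**Figure D3:**
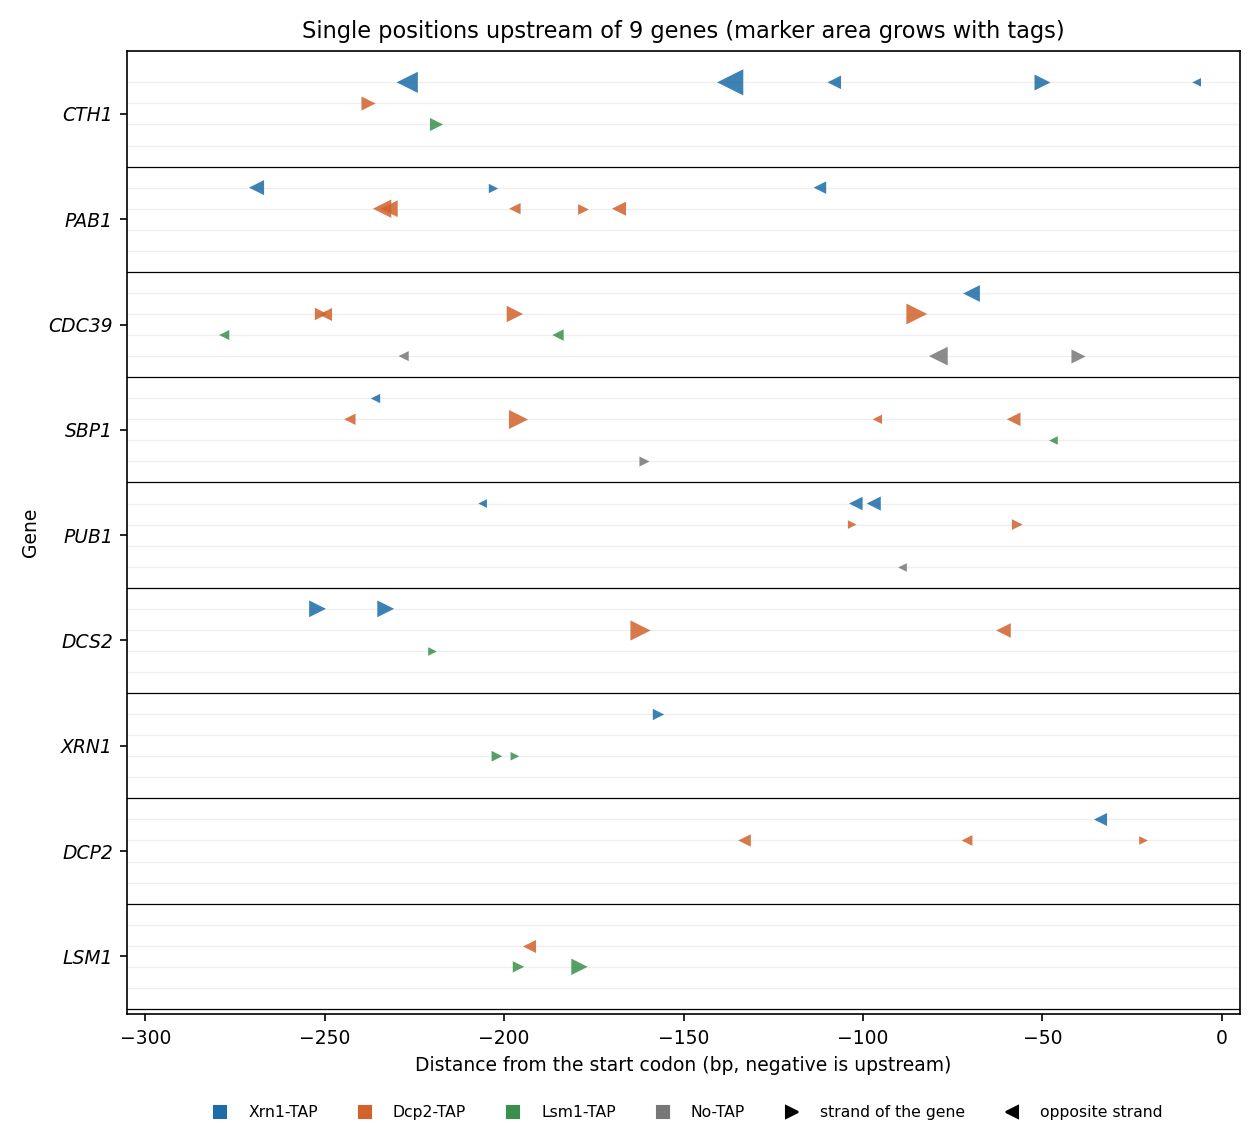
Single positions upstream of 9 decay factor genes (rows), by distance from the start codon in bp, coloured by library, each library on a line of its own within a gene, with right-pointing markers for the gene's strand and marker area growing with tags. CTH1 in Xrn1-TAP shows 5 positions spread over the window, and PAB1 in Dcp2-TAP shows 5 that lie 234 to 168 bp upstream. CDC39 shows markers in all 4 libraries.

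The called windows held several positions each, which the call by distinct positions requires. In Xrn1-TAP the CTH1 positions lay 227, 137, 108, 50 and 7 bp upstream of the start codon with 28, 45, 9, 14 and 1 tags, and all but the one at 50 bp were on the strand opposite to the gene. In Dcp2-TAP those of PAB1 lay at 234, 232, 197, 178 and 168 bp with 20, 16, 5, 4 and 10 tags. PAB1 in Xrn1-TAP had positions at 269, 203 and 112 bp, so none was at the same place in both libraries. CDC39 had No-TAP positions at 228, 79 and 40 bp with 3, 21 and 10 tags, and Dcp2-TAP positions at 251, 250, 197 and 85 bp with 7, 8, 15 and 27 tags. Over the whole list 0 of 133 positions recurred at the same place and strand in another library. Over all coding windows outside the ribosomal DNA the recurring shares were 5.22% with Xrn1-TAP, 2.94% with Dcp2-TAP, 4.40% with Lsm1-TAP and 5.53% with No-TAP.

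By role, the mRNA-binding regulators had the highest upstream density in Xrn1-TAP, with 13 positions or 1.88-fold of a mean gene (1.00 to 3.21). This rested on single genes: without CTH1 the fold was 1.32 (0.571 to 2.61), and without PAB1 1.65 (0.792 to 3.04). The same group stood at 0.777-fold with Dcp2-TAP, 0.583-fold with Lsm1-TAP and 1.10-fold with No-TAP. The decapping and 5′ to 3′ decay genes stood at 0.723-fold with Xrn1-TAP (5 positions), 0.777-fold with Dcp2-TAP (14), 0.699-fold with Lsm1-TAP (6) and 1.10-fold with No-TAP (2). The nonsense-mediated decay genes stood at 0.771-fold in Xrn1-TAP and 0.740-fold in Dcp2-TAP, with intervals that held 1. The groups of 3 to 10 genes are too small at this depth for most of these folds to be told from 1.

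**Figure D4:**
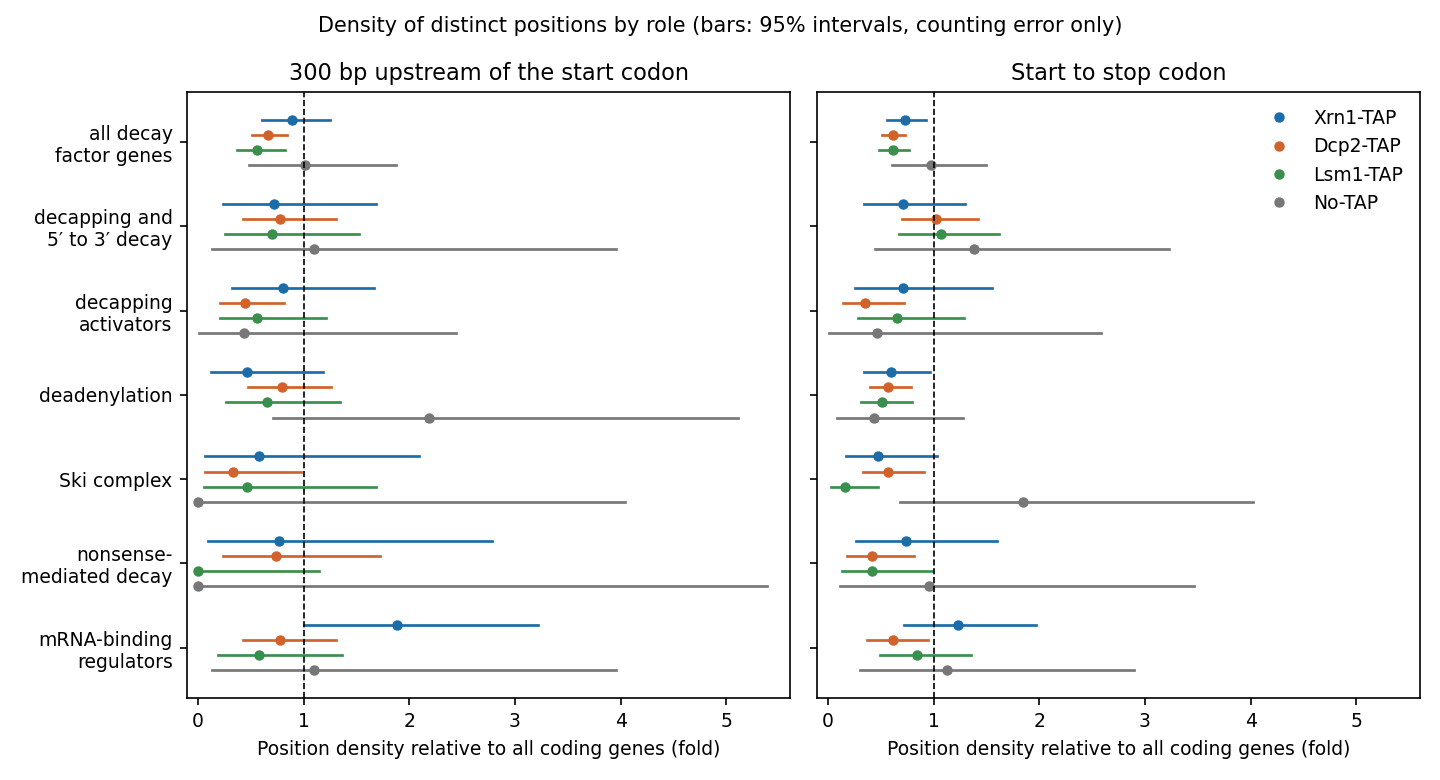
Position density of the decay factor genes relative to all coding genes (horizontal axis, fold, dashed line at 1), upstream of the start codon (left panel) and from start to stop codon (right panel), for the whole list and each role; points are values and bars exact 95% intervals for counting error. In both panels the Dcp2-TAP and Lsm1-TAP bars of the whole list lie below 1, and the No-TAP bars hold 1.

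Set against No-TAP, the share of positions upstream of the decay factor genes could not be told from that of the untagged library in any TAP library. Upstream windows took 0.179% of all positions with Xrn1-TAP, 0.142% with Dcp2-TAP, 0.103% with Lsm1-TAP and 0.211% with No-TAP. The ratio to No-TAP was 0.847 (0.408 to 1.93) for Xrn1-TAP, 0.675 (0.344 to 1.48) for Dcp2-TAP and 0.487 (0.227 to 1.13) for Lsm1-TAP, and all 3 intervals held 1. The side of 1 depended on the windows used for Xrn1-TAP and Dcp2-TAP. In windows free of other genes the ratio was 1.54 (0.450 to 8.16) for Xrn1-TAP, 1.23 (0.388 to 6.26) for Dcp2-TAP and 0.749 (0.202 to 4.13) for Lsm1-TAP, and a 500 bp window gave 1.12 (0.574 to 2.39) for Xrn1-TAP. The 10 No-TAP positions limit these ratios more than the TAP counts do. In tags the ratios were 0.827 (0.645 to 1.07) for Xrn1-TAP, 0.690 (0.546 to 0.883) for Dcp2-TAP and 0.332 (0.253 to 0.439) for Lsm1-TAP, although tags at 1 position are not independent molecules. Of the roles, the deadenylation genes had 4 positions in Xrn1-TAP and 5 in No-TAP, a share ratio of 0.205 (0.0407 to 0.954), and 3 of those 5 were the positions of CDC39. No other role had an upstream ratio to No-TAP whose interval left out 1.

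Gene by gene, a ratio to No-TAP was counted as above or below 1 where its whole exact interval lay there. By tags, 5 decay factor genes lay above No-TAP in Xrn1-TAP (CTH1, LSM4, DCS2, PAB1 and NAM7), 1 in Dcp2-TAP (PAB1) and 1 in Lsm1-TAP (SCD6), against 9.04%, 7.11% and 7.44% of coding genes. All of these had 0 tags in No-TAP, so their folds were taken against a floor of 3 No-TAP tags. The lower limit of the exact interval, which uses no floor, follows each fold in brackets. In Xrn1-TAP CTH1 stood at 6.83-fold (5.45), LSM4 at 2.25-fold (1.73), DCS2 at 2.25-fold (1.73), PAB1 at 1.48-fold (1.1) and NAM7 at 1.41-fold (1.04). In Dcp2-TAP PAB1 stood at 1.71-fold (1.35), and in Lsm1-TAP SCD6 stood at 1.58-fold (1.21), with all 30 tags at 1 position. Below No-TAP by tags were 5 genes in Xrn1-TAP (CDC39, CDC36, LSM6, EDC2 and MOT2), 4 in Dcp2-TAP (CDC39, LSM6, EDC2 and MOT2) and 6 in Lsm1-TAP (CDC39, CDC36, LSM6, EDC2, MOT2 and SBP1), against 9.71%, 9.39% and 10.4% of coding genes. CDC39 had 0.0995-fold the No-TAP share in Xrn1-TAP (0.0513 to 0.185), 0.157-fold in Dcp2-TAP (0.101 to 0.247) and 0.0372-fold in Lsm1-TAP (0.0149 to 0.0819). The other genes below No-TAP rested on 1 No-TAP position each, of 17 tags for MOT2, 15 for LSM6, 6 for EDC2, 3 for CDC36 and 3 for SBP1.

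Counted by positions, 0 decay factor genes lay above No-TAP in any library, as did 0 of 5684 coding genes. A gene with 0 No-TAP positions would need 17 positions in Xrn1-TAP, 37 in Dcp2-TAP and 22 in Lsm1-TAP. The largest counts among the decay factor genes were 5, 5 and 2, so none could lie above by positions. Below No-TAP was CDC39 in Dcp2-TAP, with 4 positions against 3 and a ratio of 0.141 (0.0238 to 0.960), where the background was 0.334%. No decay factor gene lay below by positions in Xrn1-TAP (background 0.0704%) or in Lsm1-TAP (background 0.563%). The scale also mattered. Median-ratio scaling, with factors from only the 467 coding genes with upstream tags in all 4 libraries, was tried in place of library totals. It raised every log2 ratio to No-TAP by 0.84 for Xrn1-TAP, 0.92 for Dcp2-TAP and 1.35 for Lsm1-TAP. With it, the share of coding genes that lay above among those above or below was 70.7% for Xrn1-TAP, 74.2% for Dcp2-TAP and 76.1% for Lsm1-TAP, against 48.2%, 43.1% and 41.6% with library totals. The decay factor genes above and below No-TAP then numbered 7 and 5 for Xrn1-TAP, 4 and 3 for Dcp2-TAP, and 5 and 4 for Lsm1-TAP. Over all coding genes 19.1% then lay above and 7.94% below for Xrn1-TAP, 20.8% and 7.25% for Dcp2-TAP, and 23.9% and 7.495% for Lsm1-TAP.

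Between the TAP libraries, the upstream share of the list was highest in Xrn1-TAP and lowest in Lsm1-TAP. The ratio of Xrn1-TAP to Lsm1-TAP was 1.74 (1.01 to 3.03). Relative to all coding windows it was 1.58 (0.914 to 2.74), an interval that held 1. Xrn1-TAP over Dcp2-TAP gave 1.25 (0.798 to 1.94) and Dcp2-TAP over Lsm1-TAP 1.39 (0.867 to 2.28). Among the roles the mRNA-binding regulators had the one upstream ratio between TAP libraries whose interval left out 1, with 13 positions in Xrn1-TAP and 5 in Lsm1-TAP, a share ratio of 3.57 (1.19 to 12.8). It rested on single genes: without CTH1 the ratio was 2.74 (0.735 to 12.5; 8 positions against 4), and without PAB1 2.74 (0.854 to 10.2; 10 against 5).

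Inside the genes, from start to stop codon, the pooled position density of the TAP libraries was below that of all coding genes. In tags the folds of these libraries lay closer to 1. Medians per gene, and the share of genes with a position, also lay closer to those of all coding genes. Over 76.88 kb of coding length the decay factor genes held 61 positions with Xrn1-TAP, 122 with Dcp2-TAP, 75 with Lsm1-TAP and 21 with No-TAP. Per kb this was 0.794 with Xrn1-TAP, 1.59 with Dcp2-TAP, 0.976 with Lsm1-TAP and 0.273 with No-TAP, against 1.09, 2.58, 1.59 and 0.280 over all coding genes. The fold was 0.726 with Xrn1-TAP (0.556 to 0.933), 0.615 with Dcp2-TAP (0.511 to 0.734), 0.614 with Lsm1-TAP (0.483 to 0.770) and 0.977 with No-TAP (0.605 to 1.49). The 3 TAP intervals lay below 1. In tags the fold crossed to the other side of 1 with Xrn1-TAP: it was 1.16 with Xrn1-TAP, 0.876 with Dcp2-TAP, 0.993 with Lsm1-TAP and 1.59 with No-TAP, since a position in these genes carried more tags. It carried 13.02 on average with Xrn1-TAP, 11.01 with Dcp2-TAP, 12.99 with Lsm1-TAP and 10.7 with No-TAP, against 8.18, 7.73, 8.04 and 6.55 in all coding genes. Single-tag positions made up 16.4% with Xrn1-TAP, 13.1% with Dcp2-TAP, 8.00% with Lsm1-TAP and 19.0% with No-TAP, against 30.9%, 29.6%, 31.3% and 38.0% in all coding genes. With single-tag positions left out, the fold was 0.879 with Xrn1-TAP (0.654 to 1.16), 0.759 with Dcp2-TAP (0.621 to 0.918), 0.822 with Lsm1-TAP (0.640 to 1.04) and 1.28 with No-TAP (0.744 to 2.04), so only the Dcp2-TAP interval still left out 1. With the first and last 300 bp of each gene left out, the Xrn1-TAP fold was 0.880 (0.640 to 1.18). At least 1 position lay inside 27 genes (62.8%) with Xrn1-TAP, 35 (81.4%) with Dcp2-TAP, 32 (74.4%) with Lsm1-TAP and 15 (34.9%) with No-TAP, against backgrounds of 60.0%, 84.5%, 70.3% and 24.8%. A median decay factor gene had 0.604 positions per kb with Xrn1-TAP, 1.47 with Dcp2-TAP, 0.891 with Lsm1-TAP and 0 with No-TAP, beside 0.588, 1.66, 0.947 and 0 over coding genes.

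The most interior positions were found in the longest genes, CDC39 and XRN1, and the 3 highest values per kb in short ones. Length did not order the other genes. SKI3, of 4299 bp, held 6 over the TAP libraries and NOT5, of 1683 bp, held 10. XRN1, of 4587 bp, had 6 positions (106 tags) with Xrn1-TAP, 17 (185 tags) with Dcp2-TAP, 9 (174 tags) with Lsm1-TAP and 1 (2 tags) with No-TAP, close to the 6.48, 15.9, 8.77 and 1.66 of an even spread. CDC39, of 6327 bp, had 5 with Xrn1-TAP, 12 with Dcp2-TAP, 8 with Lsm1-TAP and 1 with No-TAP. Per kb and summed over the TAP libraries EDC1 led with 9.47, followed by LSM6 with 7.66, LSM3 with 7.41 and XRN1 with 6.98, and the first 3 of these rested on 5, 2 and 2 positions in coding regions of 528, 261 and 270 bp. EDC1 had 3 interior positions with Dcp2-TAP and 2 with Lsm1-TAP, and its paralogue EDC2 had 1 with Xrn1-TAP, 2 with Lsm1-TAP and 2 with No-TAP. LSM6 had both of its positions in Dcp2-TAP, and LSM3 had 1 in each library other than Dcp2-TAP. DCS1 had 1 with Xrn1-TAP and 1 with Dcp2-TAP, and DCS2 1 with Dcp2-TAP. CTH1 had 1 with Xrn1-TAP, 2 with Dcp2-TAP and 3 with Lsm1-TAP, and TIS11 had 3 with Dcp2-TAP and 1 with Lsm1-TAP, so the Xrn1-TAP positions of CTH1 lay mostly upstream of the gene. Libraries not named for these genes had 0. LSM2 and CDC36 had none in any library. The Ski complex genes held 6 interior positions with Xrn1-TAP, 17 with Dcp2-TAP, 3 with Lsm1-TAP and 6 with No-TAP, which put Lsm1-TAP at 0.163-fold of all coding genes (0.0336 to 0.476) and No-TAP at 1.85-fold (0.679 to 4.03).

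Upstream windows of the decay factor genes were denser in positions than their interiors in all 4 libraries, as for other genes. The ratio of the densities was 3.22 with Xrn1-TAP (2.04 to 5.003), 3.13 with Dcp2-TAP (2.27 to 4.27), 2.07 with Lsm1-TAP (1.27 to 3.27) and 2.84 with No-TAP (1.19 to 6.30). All coding genes gave 2.64, 2.91, 2.25 and 2.72 in that order. The No-TAP library, which has no tagged factor, showed the same contrast between promoter and gene.

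The tagged loci were set apart in their own libraries, and no upstream or interior ratio to the other TAP libraries had an interval outside 1. XRN1 had 1 upstream position in Xrn1-TAP against 2 in the other TAP libraries together, a ratio of shares of 1.90 (0.0322 to 36.5). DCP2 had 3 in Dcp2-TAP against 1, a ratio of 2.92 (0.235 to 154), and LSM1 had 2 in Lsm1-TAP against 1, a ratio of 5.01 (0.261 to 295). All 3 intervals held 1 and span more than an order of magnitude. Inside the genes the ratios were 0.878 for XRN1 (0.296 to 2.18) and 1.11 for DCP2 (0.353 to 3.61), and LSM1 had 0 positions in its own library against 2 in the others. DCP2 had 8 interior positions with Dcp2-TAP, 0 with Xrn1-TAP, 7 with Lsm1-TAP and 2 with No-TAP, and LSM1 had 1 with Xrn1-TAP and 1 with Dcp2-TAP. In the 300 bp past the stop codon XRN1 had 0 positions in its own library and 1 with Dcp2-TAP, DCP2 had 3 in its own library, 1 with Xrn1-TAP and 1 with Lsm1-TAP, and LSM1 had 1 in its own library and 1 with Dcp2-TAP. No-TAP had 0 at all 3 places. Without the tagged locus in its own library the upstream fold of the list was 0.881 with Xrn1-TAP, 0.644 with Dcp2-TAP and 0.533 with Lsm1-TAP.

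Around the start codon the decay factor genes had their fullest 50 bp bin at 150 to 101 bp upstream in Xrn1-TAP (8 positions), at 100 to 51 bp in Dcp2-TAP (15 positions), at 350 to 301 bp in Lsm1-TAP (8 positions) and at 0 to 49 bp downstream in No-TAP (4 positions). Over an even spread these bins stood at 2.64-fold with Xrn1-TAP (1.14 to 5.19), 2.02-fold with Dcp2-TAP (1.13 to 3.32), 1.95-fold with Lsm1-TAP (0.841 to 3.84) and 5.13-fold with No-TAP (1.40 to 13.1). Each bin was picked as the fullest in the same data, and the intervals do not allow for that choice, so they are no test of enrichment. All coding genes had their fullest bin at 100 to 51 bp in all 4 libraries, at 2.29 to 2.96-fold. Upstream positions lay 41 to 140 bp from the start codon in 14 of 33 cases in Xrn1-TAP (42.4%), 27 of 64 in Dcp2-TAP (42.2%), 5 of 26 in Lsm1-TAP (19.2%) and 5 of 10 in No-TAP (50.0%). The median distance was 124 bp with Xrn1-TAP, 129 bp with Dcp2-TAP, 190.5 bp with Lsm1-TAP and 84 bp with No-TAP.

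**Figure D5:**
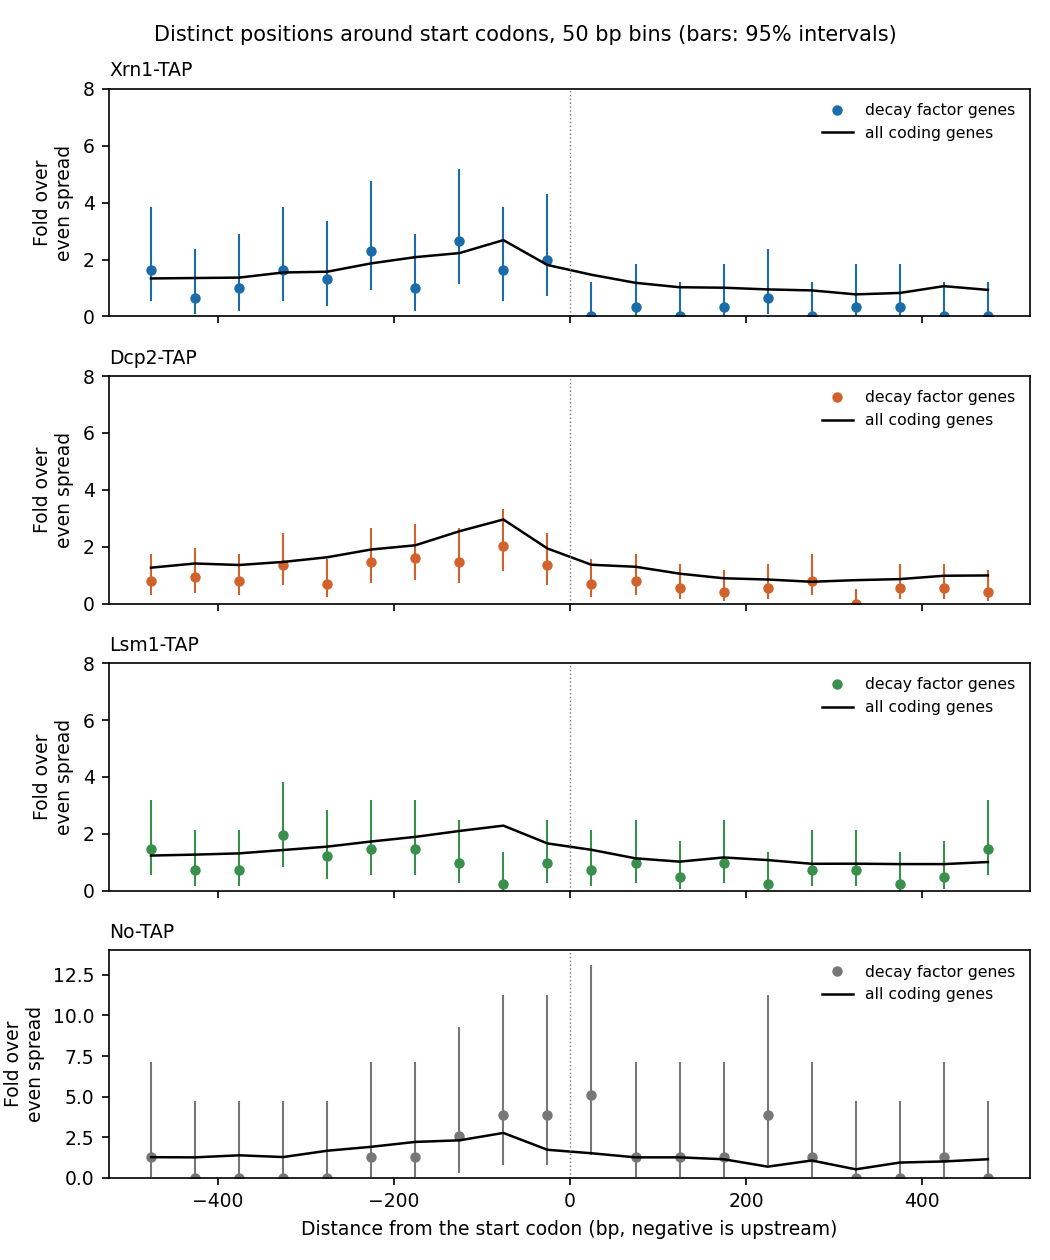
Positions in 50 bp bins around the start codon (horizontal axis, bp, negative is upstream) as fold over an even spread (vertical axis, a longer scale in the No-TAP panel), 1 panel per library; points are the decay factor genes with exact 95% intervals and the black line is all coding genes. The black line peaks at 100 to 51 bp upstream in each panel, at 2.29 to 2.96-fold, and most points upstream in the Dcp2-TAP and Lsm1-TAP panels sit under it.

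Neighbouring genes shared part of these windows. Of the 43 genes 24 (55.8%) lay next to a divergent gene and 19 in tandem, beside 52.1% divergent over coding genes. Of 133 upstream positions over the 4 libraries, 29 also lay in the window of another gene and 3 inside one, and none of the windows held an RNA gene. Divergent decay factor genes averaged 2.63 positions over the 3 TAP libraries and tandem ones 3.16, against 4.14 and 4.25 for all divergent and tandem coding genes. The lower count was thus present in both arrangements.

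A list of 33 other RNA turnover genes covered the exosome, nuclear decay, translation termination and cap binding. It also held genes of mRNA binding and nonsense-mediated decay that are not among the decay factor genes, so the lists share some roles. Its upstream densities had intervals that held that of a mean coding gene in the 4 libraries. It stood at 0.981-fold of a mean gene with Xrn1-TAP (28 positions), 0.861-fold with Dcp2-TAP (64), 1.05-fold with Lsm1-TAP (37) and 0.663-fold with No-TAP (5). The Dcp2-TAP value rested on CDC33, without which it was 0.721-fold (0.539 to 0.946), below 1 as for the decay factor genes. By positions 1 of its genes was called with Xrn1-TAP, 2 with Dcp2-TAP, 4 with Lsm1-TAP and 0 with No-TAP, against backgrounds of 4.52%, 10.9%, 6.00% and 0.792%. Its highest genes were CDC33, for the cap-binding protein eIF4E, with 3 positions with Xrn1-TAP, 12 with Dcp2-TAP, 2 with Lsm1-TAP and 1 with No-TAP, and SUP35, for a translation termination factor, with 3, 4, 4 and 0. Its interiors stood at 0.604-fold of all coding genes with Xrn1-TAP, 0.635-fold with Dcp2-TAP, 0.522-fold with Lsm1-TAP and 1.35-fold with No-TAP. The difference between the lists was not tested.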

How the data were processed

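Per the file headers, the authors deposited raw counts of tags for each genome index, by strand and summed over both, with no scaling. Per the labels' protocols, formaldehyde (1%) fixed the cells, sonicated chromatin was bound to IgG beads, and its DNA was trimmed there by lambda exonuclease and RecJf. Which aligner, build and duplicate handling were used is not given in the sources used here. Each strain has 1 file, treated as 1 library, although the design text mentions 2 replicates.

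Gene names and start codons came from the R64 gene table, used after positions were lined up with start codons in 10 bp steps up to 1000 bp each way. The best lag was at most 30 bp on 15 chromosomes and -370 bp on chromosome XI, which was left out. Distances may thus be off by that much. No coordinates are given, and 96.3% of coding lengths are multiples of 3, so start codons, not transcription starts, are the anchors. Indices start at 0 and were raised by 1. No sequences were used here.

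Software was matplotlib 3.10.9, scipy 1.17.1, pandas 2.3.3 and numpy 2.4.6 under Python 3.11.15. The even spread is a library's density over the nuclear chromosomes, ribosomal DNA repeat left out. Density intervals are exact Poisson and ratio intervals exact conditional binomial, at 95%. The floor of 3 tags is 19.0 CPM with Xrn1-TAP, 8.39 with Dcp2-TAP, 14.2 with Lsm1-TAP and 89.8 with No-TAP. Tests and ratios were run over all 5684 genes. They were also tried on counts simulated under the same Poisson and binomial models, which cannot show how they behave on the uneven counts here.

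The members and lists were chosen with earlier results of these data known. Genes given with all 4 values are the tagged loci, the 12 members with most upstream positions (the 12th place is tied at 3), those highest in No-TAP, the 4 densest inside, called genes and 3 pairs of paralogues. Alternatives were a 150 bp window, a 500 bp window, windows that end at a neighbour, positions of at least 2 tags, tags, leaving out positions up to 100 bp from any in No-TAP, start codons moved 30 bp, free windows, tandem genes, gene ends left out, ribosomal DNA left out of totals, median-ratio scaling and a filter of 10 tags. Added after seeing the data were start codons moved 30 bp the other way, indices as 1-based, coding genes in the ribosomal DNA left out, and single genes left out (tagged loci, CTH1, PAB1, CDC33).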

Additional observations from a re-analysis of the deposited data

How the results depend on the processing

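Of 240 alternative values over 27 results, 205 stayed within the counting interval, or within 1.5 times for counts, 34 moved and 1 reversed, the Xrn1-TAP gene body fold in tags. In all 13 folds or ratios lay on the other side of 1, the other 12 with a main interval that held 1. Windows free of neighbours gave share ratios to No-TAP of 1.54 for Xrn1-TAP and 1.23 for Dcp2-TAP, and a Dcp2-TAP upstream fold of 0.743 (0.518 to 1.03). The upstream folds ranged from 0.780 to 1.06 with Xrn1-TAP, 0.644 to 0.784 with Dcp2-TAP, 0.362 to 0.680 with Lsm1-TAP and 0.602 to 1.51 with No-TAP. With tags the called genes numbered 9 with Xrn1-TAP, 15 with Dcp2-TAP, 5 with Lsm1-TAP and 4 with No-TAP, and the gene body folds in that order were 1.16, 0.876, 0.993 and 1.59. With positions of at least 2 tags the gene body folds were 0.759 in Dcp2-TAP and 0.822 in Lsm1-TAP. A 150 bp window gave 0 calls in Dcp2-TAP and 0 in No-TAP, an upstream fold of 0.362 and a share ratio to No-TAP of 0.211 in Lsm1-TAP, and 2 genes above No-TAP by tags with Xrn1-TAP, 0 with Dcp2-TAP and 0 with Lsm1-TAP. A 500 bp window gave 0 calls in No-TAP and 2 genes above No-TAP in both Dcp2-TAP and Lsm1-TAP. Windows free of neighbours, and tandem genes, gave 0 calls in Xrn1-TAP and 0 in No-TAP, because CTH1 and CDC39 are left out by construction. By positions 0 genes lay above No-TAP in each TAP library, and 0, 1 and 0 below. Median-ratio scaling put 4 genes above No-TAP in Dcp2-TAP and 5 in Lsm1-TAP. Start codons moved 30 bp downstream gave 0 genes above in Dcp2-TAP, and moved upstream 2 above in Lsm1-TAP and 2 calls in Dcp2-TAP. The 150 bp window leaves out by construction the PAB1 positions in Dcp2-TAP, at 168 to 234 bp, and the SCD6 position in Lsm1-TAP, at 251 bp. The cause of the other moves was not tested. Removal of positions near No-TAP positions gives no No-TAP value. No paired analysis was possible because each strain has 1 library. Depth limits the single-gene values: a No-TAP window holds 0.228 positions on average.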

Other observations

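Past the stop codon the interval of the decay factor genes lay below 1 in Lsm1-TAP only, although the No-TAP value was lower still. The 300 bp downstream windows held 23 positions with Xrn1-TAP, 65 with Dcp2-TAP, 23 with Lsm1-TAP and 4 with No-TAP. Relative to a mean coding gene this was 0.796-fold (0.505 to 1.195), 0.851-fold (0.657 to 1.084), 0.593-fold (0.376 to 0.889) and 0.512-fold (0.140 to 1.31) in that order. The mRNA-binding regulators held 16 of the 65 in Dcp2-TAP and 2 of the 23 in Lsm1-TAP. In the interiors of the decapping and 5′ to 3′ decay genes, where XRN1 and DCP2 account for most positions, densities were 0.708-fold of all coding genes with Xrn1-TAP, 1.02-fold with Dcp2-TAP, 1.07-fold with Lsm1-TAP and 1.38-fold with No-TAP. The interiors of the nonsense-mediated decay genes stood at 0.736-fold with Xrn1-TAP (6 positions), 0.415-fold with Dcp2-TAP (8), 0.422-fold with Lsm1-TAP (5) and 0.958-fold with No-TAP (2).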
